A study of Mus musculus with 14 samples.

Results

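The genes described here are 7 transcription factors that set or maintain noradrenergic neuron identity: Phox2a, Tfap2b, Gata2, Gata3, Tlx3, Hand2 and Insm1. They were chosen by name and found by gene symbol among the 55422 entries of the count table, and all 7 were found. The RNA came from mouse brainstem, from 7 animals of the genotype TH-Cre;Slc6a2-eGFP/Rpl10a on a C57Bl/6 background. In these mice Th sequences drive Cre recombinase, and Slc6a2 sequences drive a tagged form of the ribosomal protein Rpl10a, so that ribosomes of noradrenergic cells can be pulled down with the RNA on them. At 2 to 3 months of age, 4 animals (B, C, L and M) were infused in the locus coeruleus with P364S mutant human tau, and 3 animals (H, I and K) with enhanced yellow fluorescent protein (EYFP). All animals carried both alleles and an infusion, so no group stands for an untouched animal. Each animal gave a total homogenate (pre-IP) and an immunoprecipitate (IP), which makes 4 tau IP, 3 EYFP IP, 4 tau pre-IP and 3 EYFP pre-IP libraries. The letters mark separate animals. In comparisons within a single fraction, p-values measure the spread between these few animals. Fits over both fractions took the libraries of an animal as independent, and the pairing by animal entered only as an alternative.

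The locus coeruleus is the main source of noradrenaline in the forebrain. Its neurons are specified in the embryonic hindbrain by a cascade of transcription factors in which the paired-like homeodomain factor Phox2a helps to switch on the synthetic enzymes Dbh and Th. AP-2, GATA, T-cell leukaemia homeobox, Hand and Insm factors join this programme in the locus coeruleus or in the related sympathetic neurons. Several also work outside it: Gata2 and Gata3 in GABAergic and serotonergic neurons, Tlx3 in glutamatergic neurons, and Insm1 in endocrine cells.

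Library totals ran from 41843489 to 65664551 counts, and a floor of 3 counts came to between 0.0457 and 0.0717 CPM. CPM is the count of a gene for every 1000000 counts of its library. The library of the EYFP IP of animal I had an RNA integrity number of 4.2, and the other libraries ran from 7.7 to 9. IP RNA was between 0.1 and 0.8 ng per microlitre in tau animals and between 0.7 and 2.8 in EYFP animals. The tau construct had 3527 to 47177 counts in tau libraries and 2 to 18 in those of H and I, but 408 and 398 in the pre-IP and IP of K, which is labelled EYFP. Animal M, labelled female, had 674 and 1153 counts of Y-linked genes in its pre-IP and IP. All 4 noradrenergic markers (Dbh, Th, Slc6a2 and Slc18a2) were detected in each group. Their summed level was 476 to 3644 CPM in tau IP, 193 to 248 in EYFP IP, 101 to 121 in tau pre-IP and 93.4 to 135 in EYFP pre-IP. In bulk RNA, fewer cells of a type and less RNA per cell cannot be told apart.

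The 3 members that differed between IP and pre-IP were Phox2a, Tfap2b and Gata2, and the 250 bases before their first annotated start are shown for these 3 only. Sequences are from RefSeq (GRCm38.p6), 5′ to 3′ on the strand of the gene, here the plus strand for all 3. Capitals mark GATA on either strand in the Phox2a sequence (chr7:101818063-101818312) and the homeodomain core TAAT on either strand, with overlaps allowed, in the Tfap2b sequence (chr1:19211804-19212053). The Gata2 sequence (chr6:88193641-88193890) has no match to either and is in lower case throughout.
Phox2a: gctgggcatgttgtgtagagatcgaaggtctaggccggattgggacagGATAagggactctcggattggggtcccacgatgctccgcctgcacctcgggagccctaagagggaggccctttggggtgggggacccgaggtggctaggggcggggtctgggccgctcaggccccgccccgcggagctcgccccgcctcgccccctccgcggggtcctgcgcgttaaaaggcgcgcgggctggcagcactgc
Tfap2b: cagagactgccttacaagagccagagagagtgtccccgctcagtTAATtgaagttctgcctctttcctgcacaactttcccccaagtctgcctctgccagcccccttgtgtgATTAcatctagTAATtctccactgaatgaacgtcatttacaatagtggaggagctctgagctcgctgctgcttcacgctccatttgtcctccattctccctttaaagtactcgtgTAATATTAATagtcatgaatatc
Gata2: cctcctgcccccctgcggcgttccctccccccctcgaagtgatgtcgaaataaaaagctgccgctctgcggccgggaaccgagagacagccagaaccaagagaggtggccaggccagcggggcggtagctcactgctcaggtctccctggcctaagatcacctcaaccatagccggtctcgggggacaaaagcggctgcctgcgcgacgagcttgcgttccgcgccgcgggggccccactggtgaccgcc
The Phox2a window had 1 GATA match and 0 TAAT matches, and the Tfap2b window had 6 TAAT matches and 1 GATA match. TAAT occurred in 54.92% and GATA in 53.62% of 32851 RefSeq mouse promoter windows of the same length. GC content was 70.4% for Phox2a, 67.2% for Gata2 and 46.4% for Tfap2b, against a median of 52.4% over all windows. The AP-2 motif GCCNNNGGC had 0 matches in these 3 windows and occurred in 13.73% of all. The window of a further annotated start of Gata2 (chr6:88198414-88198663), not shown, had 1 match to it. The Tfap2b window lies in an intron of the longest GENCODE span of Tfap2b, because RefSeq starts the gene further in. A match describes letters only.

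Phox2a, the homeodomain factor without which the locus coeruleus does not form, was the member that set the IP apart most. The gene lies at chr7:101818313-101822726 on GRCm38, plus strand. In tau IP it had 29.9 CPM in B, 7.33 in C, 18.8 in L and 6.20 in M. In EYFP IP it had 0.335 CPM in H, 1.59 in I and 1.48 in K. The lowest tau IP library thus lay well above the highest EYFP IP library. Pre-IP libraries held little of it, at 0.209 CPM in B, 0.308 in C, 0.348 in L and 0.484 in M, and at 0.335 in H, 0.361 in I and 0.730 in K. These pre-IP levels rest on 10 to 40 counts each, so the ratios built on them carry wide counting error. Group means were 15.6 ± 11.1 CPM in tau IP (SD, n = 4), 1.14 ± 0.697 in EYFP IP (SD, n = 3), 0.337 ± 0.114 in tau pre-IP (SD, n = 4) and 0.475 ± 0.221 in EYFP pre-IP (SD, n = 3). Of its exonic bases, 95 overlap the opposite strand gene Inppl1, which had 502 to 2364 counts. Whether counting used strand is not given in the sources used here, so reads of the 2 genes in this overlap cannot be told apart.

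**Figure D1:**
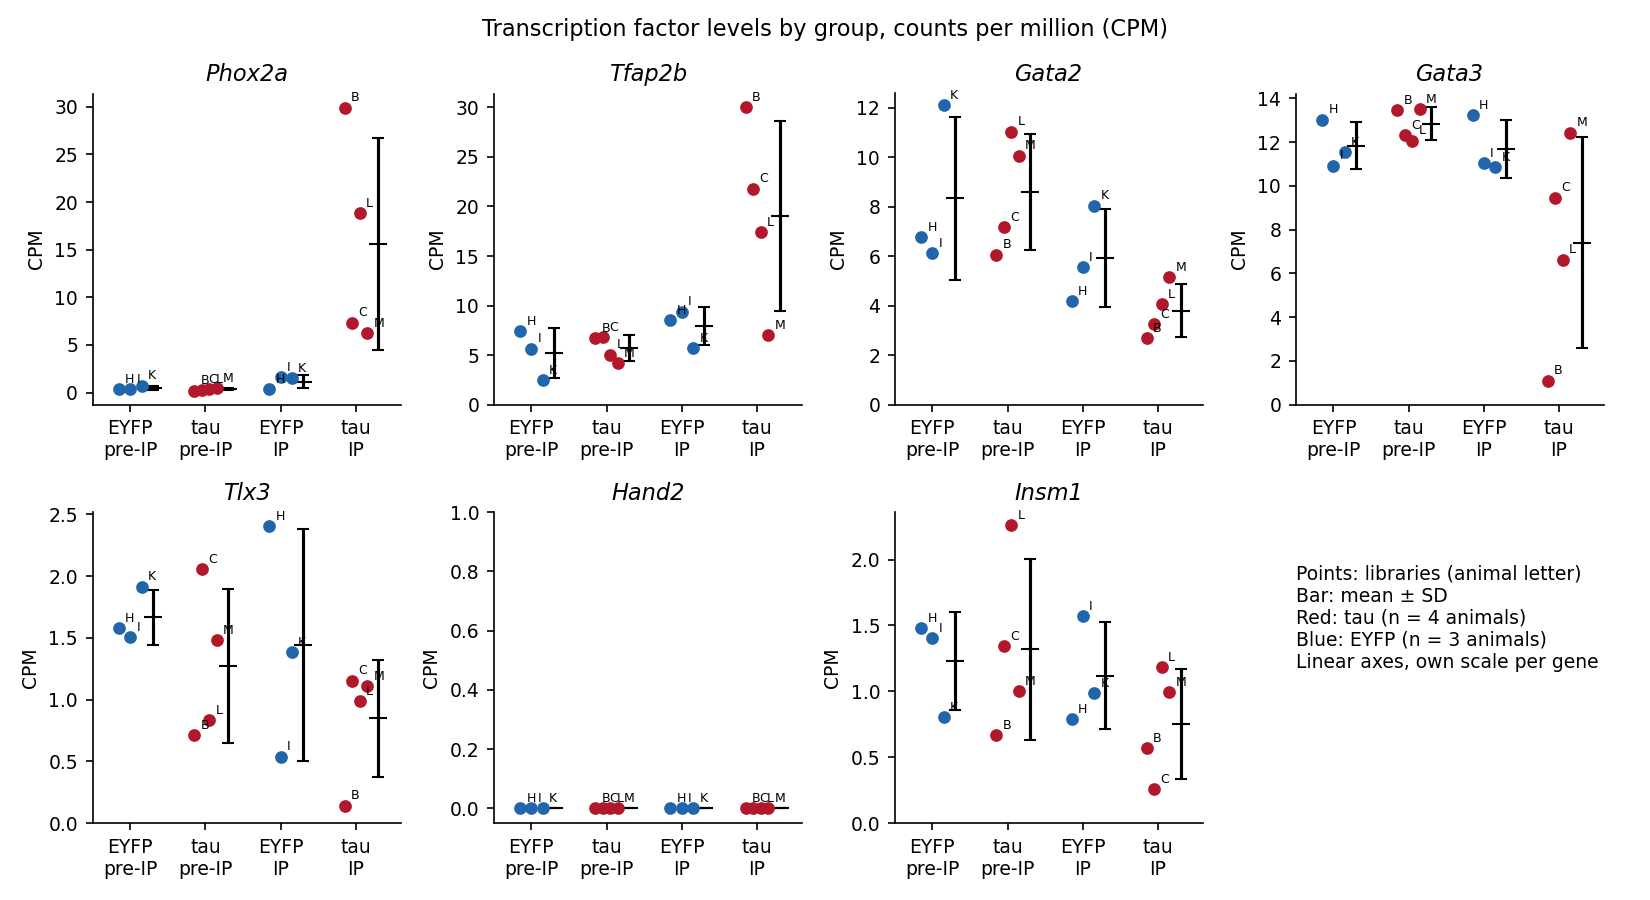
Level of each transcription factor in CPM (vertical axes, linear, own scale for each gene) in the 4 groups (horizontal axis), with 1 point for each library labelled by animal letter and bars for the mean ± SD. Phox2a in tau IP runs from 6.20 to 29.9 with all other libraries at or below 1.59, Gata3 in tau IP spreads from 1.10 to 12.4, and Hand2 is at 0 throughout.

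Tfap2b, an AP-2 factor of neural crest and noradrenergic cells, also rose in IP, by less and from a higher start. It lies at chr1:19208914-19238576, plus strand. In tau IP it had 30.02 CPM in B, 21.8 in C, 17.4 in L and 7.02 in M. In EYFP IP it had 8.54 CPM in H, 9.40 in I and 5.73 in K. Animal M fell inside the EYFP IP range and the other 3 tau IP libraries lay above it. Pre-IP levels were 6.70 CPM in B, 6.85 in C, 5.04 in L and 4.16 in M, and 7.46 in H, 5.65 in I and 2.48 in K. The pre-IP groups overlapped. Each animal had more Tfap2b in its IP than in its pre-IP.

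Gata2, a zinc finger factor that drives GABAergic fate in the midbrain and brainstem, was lower in IP than in pre-IP in 7 of 7 animals. Its gene is at chr6:88193891-88207032, plus strand. Tau IP libraries had 2.71 CPM in B, 3.25 in C, 4.06 in L and 5.17 in M, and EYFP IP libraries 4.17 in H, 5.57 in I and 8.05 in K. Tau pre-IP libraries had 6.07 CPM in B, 7.17 in C, 11.04 in L and 10.1 in M, and EYFP pre-IP libraries 6.79 in H, 6.12 in I and 12.1 in K. In pre-IP the 3 animals with library numbers from 17 up (K, L and M) lay above the 4 with numbers up to 11 (B, C, H and I). Both treatments occur in each number range.

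Gata3, its close relative and a factor of sympathetic and raphe neurons, was even across the pre-IP and EYFP IP libraries and uneven in tau IP. The gene is at chr2:9857078-9890034, minus strand. In tau IP it had 1.10 CPM in B, 9.47 in C, 6.63 in L and 12.4 in M. EYFP IP libraries had 13.2 CPM in H, 11.03 in I and 10.9 in K. Tau pre-IP libraries lay between 12.1 and 13.5 CPM, and EYFP pre-IP libraries between 10.9 and 13.02. The low value of B rests on 62 counts, against 643 in the pre-IP of the same animal. This IP library of B had the lowest RNA concentration of all, 0.1 ng per microlitre, and the fewest genes with a count, 20813. M lay inside the EYFP IP range. Markers of GABA and glycine neurons (Gad1, Gad2, Slc32a1 and Slc6a5, all 4 detected) summed to 186 to 336 CPM in tau IP, 388 to 462 in EYFP IP, 293 to 414 in tau pre-IP and 296 to 380 in EYFP pre-IP. The 5 serotonergic markers, all detected, summed to 29.9 to 84.9 CPM in tau IP and 60.3 to 146 in EYFP IP. Their sums were 63.7 to 110 CPM in tau pre-IP and 59.9 to 141 in EYFP pre-IP. Of these 5, 1 went the other way between the IP groups, Lmx1b, at 3.65 to 8.06 CPM with tau and 2.24 to 3.57 with EYFP. The part of both sets of neurons in the Gata2 and Gata3 levels was not tested.

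Tlx3, a homeodomain factor needed for hindbrain noradrenergic centres and for glutamatergic fate in sensory relay neurons, was low everywhere. It lies at chr11:33200752-33203589, minus strand. Tau IP libraries had 0.142 CPM in B, 1.15 in C, 0.986 in L and 1.11 in M, and EYFP IP libraries 2.41 in H, 0.538 in I and 1.38 in K. Tau pre-IP libraries ran from 0.712 to 2.06 CPM and EYFP pre-IP libraries from 1.504 to 1.92. The groups overlapped between treatments within each fraction, and between fractions within each treatment.

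Insm1, a zinc finger factor of developing monoaminergic neurons and endocrine cells, was as low. It is a gene of a single exon at chr2:146221921-146225020, plus strand. Tau IP libraries had 0.569 CPM in B, 0.256 in C, 1.18 in L and 0.995 in M, and EYFP IP libraries 0.792 in H, 1.57 in I and 0.988 in K. Tau pre-IP libraries ran from 0.670 to 2.26 CPM and EYFP pre-IP libraries from 0.803 to 1.48, so the groups overlapped. The highest value, 2.26 CPM, was in the pre-IP of L, where the 8 pituitary markers summed to 5855 CPM, against 15.3 to 851 in the other pre-IP libraries. In the IP of L these markers summed to 4466 CPM with Insm1 at 1.18 CPM. In the IP of I they summed to 46.2 CPM with Insm1 at 1.57 CPM. The part of pituitary RNA in the Insm1 levels was not tested.

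Hand2, a basic helix-loop-helix factor of sympathetic neurons, had 0 counts in 14 of 14 libraries. A count of 0 allows up to 0.0717 CPM in the shallowest library. The gene is at chr8:57320983-57324633, plus strand, and 461 of its exonic bases overlap the opposite strand transcript Hand2os1, which had 0 to 16 counts.

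Per kilobase of exon, which allows levels of different genes to be ordered, the order of the members turned over between fractions in tau animals. In tau pre-IP, Gata3 came first at 3.23 ± 0.189 CPM per kilobase (SD, n = 4), followed by Gata2 at 1.59 ± 0.436, and neither range overlapped the next. Phox2a had the lowest mean of the detected members there, at 0.166 ± 0.0559 CPM per kilobase, with a range that overlapped that of Insm1. EYFP pre-IP also had Gata3 first, at 2.97 ± 0.271 CPM per kilobase (SD, n = 3). Phox2a again had the lowest mean of those detected, at 0.233 ± 0.109, and overlapped Insm1. In tau IP Phox2a came first, at 7.65 ± 5.47 CPM per kilobase, then Tfap2b at 3.01 ± 1.51 and Gata3 at 1.86 ± 1.21. Neighbours in this order overlapped, from Phox2a down to Insm1, while Phox2a and Tfap2b each lay above the whole range of Gata2, Tlx3 and Insm1. In EYFP IP Gata3 remained first, at 2.94 ± 0.333 CPM per kilobase, clear of Tfap2b at 1.24 ± 0.303, and Phox2a was at 0.559 ± 0.342.

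The fractions were next compared across the 14 libraries, with a term for treatment and no pairing by animal. This asks which members the tagged ribosomes carried at a higher share than the homogenate. Phox2a and Tfap2b rose and Gata2 fell, and the other 3 tested members did not pass the threshold of an adjusted p of 0.05. Of all 18792 genes tested, 16.3% were called higher and 14.7% lower, so a call is common in this comparison and the sizes say more than the count of 3 of 6. On the log2 scale Phox2a was at 3.87 (SE 0.81, edgeR adjusted p = 0.00215), and Tfap2b was at 1.34 (SE 0.33, edgeR adjusted p = 0.00616). Gata2 was at -0.85 (SE 0.23, edgeR adjusted p = 0.011). Gata3 was at -0.44 (SE 0.31, edgeR adjusted p = 0.316), Insm1 at -0.47 (SE 0.35, adjusted p = 0.336) and Tlx3 at -0.40 (SE 0.40, adjusted p = 0.486). The median over all genes tested was -0.0036, and over the 6 members -0.42. Hand2 could not be tested. No member was free of overlap between the 7 IP and 7 pre-IP libraries, while 3.69% of genes were free of it upward and 5.77% downward. Leaving out any 1 animal, K and M included, Phox2a stayed between 3.10 (without B) and 4.48 (without K), Tfap2b between 1.10 and 1.54 and Gata2 between -0.95 and -0.75, with edgeR adjusted p up to 0.0148, 0.0283 and 0.0489.

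Animal by animal, the log2 ratio of IP to pre-IP of Phox2a was 6.90 in B, 4.41 in C, 5.62 in L and 3.596 in M, and -0.07 in H, 2.03 in I and 0.98 in K. That is 12.1-fold to 119-fold in tau animals and 0.956-fold to 4.08-fold in EYFP animals. The Tfap2b ratio was above 0 in 7 of 7 animals. It averaged 1.59 ± 0.60 with tau (SD, n = 4) and 0.71 ± 0.50 with EYFP (SD, n = 3). IP CPM exceeded pre-IP CPM in all 7 animals for 10.8% of genes and lay below it in all 7 for 16.5%, the class that Gata2 belongs to. The Gata2 ratio ran from -1.43 to -0.96 in tau animals and from -0.70 to -0.13 in EYFP animals, without overlap. For Gata3 it was -3.57 in B, -0.38 in C, -0.86 in L and -0.12 in M, against 0.02 in H, 0.01 in I and -0.09 in K. The EYFP animals thus had the same Gata3 share in both fractions to within 0.09 on the log2 scale. Tlx3 ran from -2.08 to 0.24 in tau animals and from -1.41 to 0.58 in EYFP animals. Insm1 averaged -0.84 ± 0.99 in tau animals and -0.15 ± 0.65 in EYFP animals, with overlap for both genes.

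**Figure D2:**
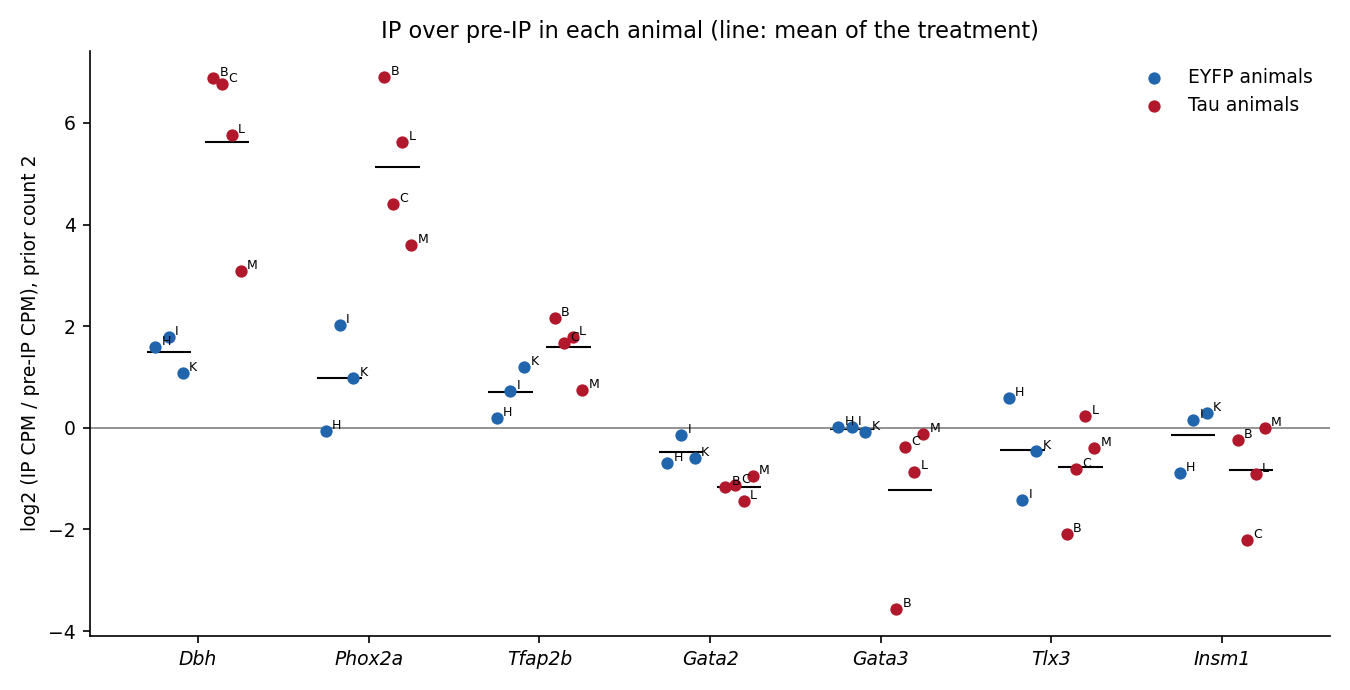
Log2 ratio of IP to pre-IP CPM with a prior count of 2 (vertical axis) in each animal, for Dbh and the 6 detected factors (horizontal axis), with 1 point for each animal and a line at the mean of each treatment. Dbh and Phox2a lie apart between tau and EYFP animals, at 3.08 and above against 1.79 and below for Dbh, Gata2 lies below 0 in all 7, and Gata3 is near 0 in the 3 EYFP animals.

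Within tau animals alone, Phox2a was higher in IP by 5.60 (SE 0.62, edgeR adjusted p = 0.00415) and Tfap2b by 1.84 (SE 0.40, edgeR adjusted p = 0.0122), and Gata2 was at -1.13 (SE 0.27, edgeR adjusted p = 0.0168), where 10.4% of genes were called higher and 10.3% lower. None of the 3 overlapped between fractions in tau animals, as held for 11.5% of genes upward and 17.6% downward. Within EYFP animals alone no member passed, where 3.96% of genes were called higher and 2.41% lower by edgeR. There Phox2a was at 1.22 (SE 0.61, edgeR adjusted p = 0.267), Tfap2b at 0.62 (SE 0.33, adjusted p = 0.309) and Gata2 at -0.51 (SE 0.33, adjusted p = 0.401). No member was free of overlap between the fractions of EYFP animals, while 14.1% of genes were free of it upward and 13.3% downward.

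The difference between treatments was tested directly. Between tau IP and EYFP IP no gene of 19472 passed by edgeR (0% called), while 2336 genes, 12%, had an unadjusted p under 0.05, and Phox2a and Tfap2b were 2 of these. For Phox2a the log2 fold change was 3.93 (SE 0.76), with an unadjusted edgeR p of 0.000469 and an adjusted p of 0.318. Its groups did not overlap, as was so for 6.36% of genes upward and 9.22% downward. Tfap2b was at 1.41 (SE 0.45, edgeR adjusted p = 0.318). The other 4 were negative without passing, with Gata2 at -0.55 (SE 0.33, edgeR adjusted p = 0.527), Gata3 at -0.59 (SE 0.56), Insm1 at -0.47 (SE 0.60) and Tlx3 at -0.69 (SE 0.72). Animal M had the lowest sum of the noradrenergic markers among tau IP libraries, 476 CPM, against 1841 to 3644 in B, C and L. Without animal M, 128 genes passed by edgeR, and Phox2a at 4.20 (adjusted p = 0.0399) and Tfap2b at 1.70 (adjusted p = 0.0491) were among them. Without each of the other animals in turn, 0 genes passed, and without K, which held construct counts, Phox2a was at 4.17 (edgeR adjusted p = 0.571). Its lowest values were 3.31 without B (edgeR adjusted p = 0.194) and 3.45 without H (edgeR adjusted p = 0.636), so B alone moved the fold by over 1.5 times. DESeq2 called 411 genes. Its own filter on mean count left the members without an adjusted p, so they could not be among those called. Their unadjusted DESeq2 p was 9.38e-11 for Phox2a and 0.000883 for Tfap2b. The 4 noradrenergic markers moved the same way, at log2 fold changes of 2.81 to 4.36, with 4 of 4 not overlapping and 0 called by edgeR. How much of the Phox2a and Tfap2b difference follows the amount of noradrenergic RNA in each IP was not tested.

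In the homogenates, no member passed in the same treatment contrast. Tau pre-IP against EYFP pre-IP gave log2 fold changes from -0.49 for Phox2a (SE 0.46) to 0.17 for Tfap2b (SE 0.30), and an edgeR adjusted p of 1.00 for each of the 6. Over all genes 0 of 19197 passed by edgeR and 545 (2.84%) had an unadjusted p under 0.05, none of them a member. No member was free of overlap between the treatments, while 1.33% of genes were free of it upward and 1.78% downward.

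The interaction of treatment and fraction asks whether IP over pre-IP differed between tau and EYFP animals, and it shares its libraries with the comparisons above. By edgeR 0 of 20495 genes passed (0% called), with 1223 (5.97%) at an unadjusted p under 0.05, Phox2a and Tfap2b among them. Phox2a had an interaction of 4.42 (SE 0.90), with an unadjusted edgeR p of 0.000171 and an adjusted p of 0.242. Tfap2b had 1.26 (SE 0.59, edgeR adjusted p = 0.82). Gata2 was at -0.60 (SE 0.45) and Gata3 at -0.73 (SE 0.62), both with ratios that did not overlap between treatments, which 7.94% of genes shared in that direction. Phox2a ratios did not overlap either, upward, as was so for 3.93% of genes. DESeq2 called 52 genes, Phox2a among them (4.43, DESeq2 adjusted p = 0.00031), and without animal M edgeR called 56, again with Phox2a (4.90, edgeR adjusted p = 0.0355). Without B Phox2a was at 3.59 (edgeR adjusted p = 0.532) and 0 genes passed. Within the library number ranges, tau minus EYFP in the Phox2a ratio was 4.67 for numbers up to 11 and 3.63 for numbers from 17. The same difference for Tfap2b was 1.45 in the first range and 0.07 in the second. The only EYFP animal of the second range was K, which held construct counts and had the lowest pre-IP level of Tfap2b.

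Phox2a was also read against Dbh, the enzyme that makes noradrenaline and a target of Phox2a. Across all 14 libraries there were 2.93 ± 1.32 Phox2a counts for every 100 Dbh counts (SD, n = 14). The pre-IP mean was 3.04 ± 0.774 and the IP mean 2.81 ± 1.78 (SD, n = 7 each). In IP the value was 2.32 in B, 0.804 in C, 2.69 in L and 4.83 in M, and 0.922 in H, 5.45 in I and 2.64 in K, so the treatments overlapped. Dbh itself ran from 8.31 CPM in the pre-IP of C to 1292 in the IP of B. For Phox2a the means of the fractions were thus near each other, while single IP libraries ran from 0.804 to 5.45. For Tfap2b the means lay apart, with 49.8 ± 25.5 counts for every 100 Dbh counts in pre-IP (SD, n = 7) and 3.17 ± 1.54 in tau IP (SD, n = 4). EYFP IP was at 21.9 ± 11.04 (SD, n = 3). From pre-IP to IP the Tfap2b value went from 61.7 to 23.5 in H, from 67.3 to 32.1 in I and from 9.35 to 10.2 in K. EYFP IP lay inside the pre-IP range only because of the pre-IP value of K, 9.35. The other 6 pre-IP values ran from 27.4 to 82.4.

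**Figure D3:**
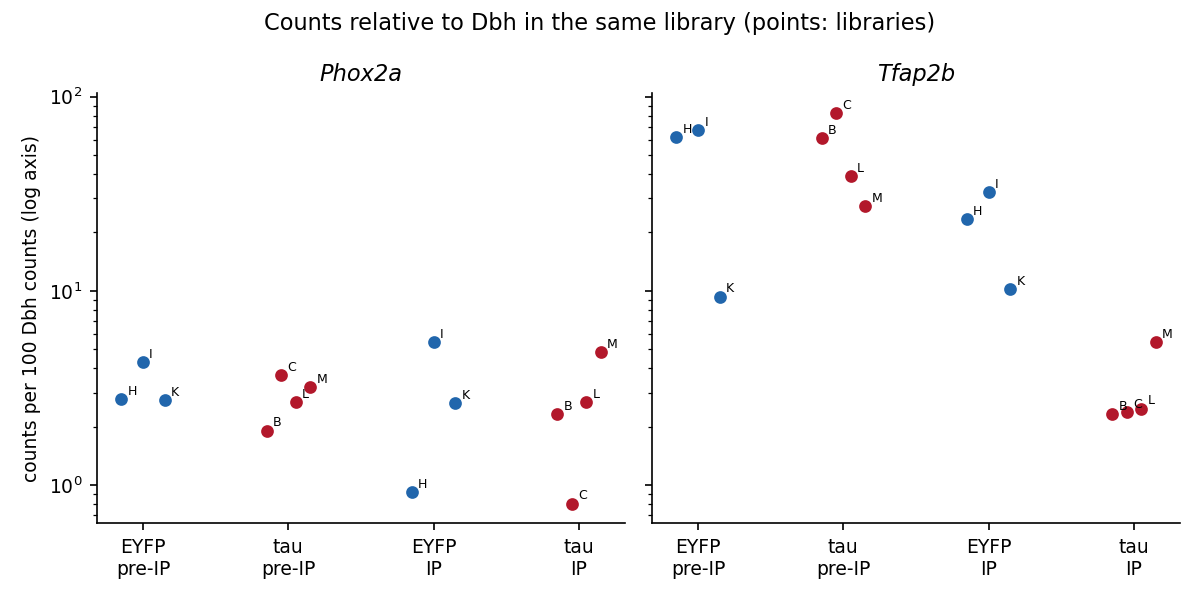
Counts of Phox2a and Tfap2b for every 100 counts of Dbh in the same library (vertical axis, log scale) by group (horizontal axis), with 1 point for each library. Phox2a overlaps between all 4 groups, with 1.91 to 4.30 in pre-IP and a wider spread of 0.804 to 5.45 in IP, while Tfap2b is at 9.35 to 82.4 in pre-IP, 10.2 to 32.1 in EYFP IP and 2.32 to 5.47 in tau IP.

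Gata3 over Gata2 per length was 1.29 to 3.01 in pre-IP and 0.553 in the tau IP of B, the lowest of the 14, against 1.83 to 4.30 in the other IP libraries.

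Genes that work with these factors were read in the same IP against pre-IP fit, where 16.3% of all genes were called higher and 14.7% lower. Of 8 noradrenergic effector genes, 6 rose and 0 fell, with a median log2 fold change of 2.01. In tau animals alone 6 rose, with a median of 3.06, where 10.4% of all genes were called higher. In EYFP animals alone 1 rose, with a median of 0.45, where 3.96% of all genes were called higher. Dbh was at 4.24 (SE 0.92, edgeR adjusted p = 0.00259), Slc6a2, the noradrenaline transporter whose regulatory sequences drive the tag, at 4.04 (SE 0.86, adjusted p = 0.00236) and Th at 2.40 (SE 0.49, adjusted p = 0.00189). The receptor tyrosine kinase Ret, at -0.23, and the nicotinic subunit Chrna3, at 0.39, did not pass. Of 9 tested among 10 other regulators of noradrenergic development, 1 rose and 0 fell, with a median of 0.01. This was the midbrain-hindbrain homeodomain factor En2 at 0.52 (SE 0.16, edgeR adjusted p = 0.0201). En1 at 0.54, Tfap2a at -0.23 and Gbx2 at -0.54 did not pass, and Hand1 was too low to test. Of 13 cofactors, 3 rose and 2 fell, with a median of 0.24. The shares of the cofactors called were thus near those of all genes, and those of the regulators were not above them. With so few genes these shares are rough. The corepressor Rcor1 was at 0.76, the bHLH factor Tcf4 at 0.58 and the homeodomain partner Pbx3 at 0.45, and the bHLH factor Tcf3 fell by 0.73 and Zfpm2, a GATA-binding zinc finger protein, by 0.65. Zfpm1, the other GATA-binding protein of this family, was at 0.59 (edgeR adjusted p = 0.158). Tcf4 and Pbx3 were named after their values were seen.

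**Figure D4:**
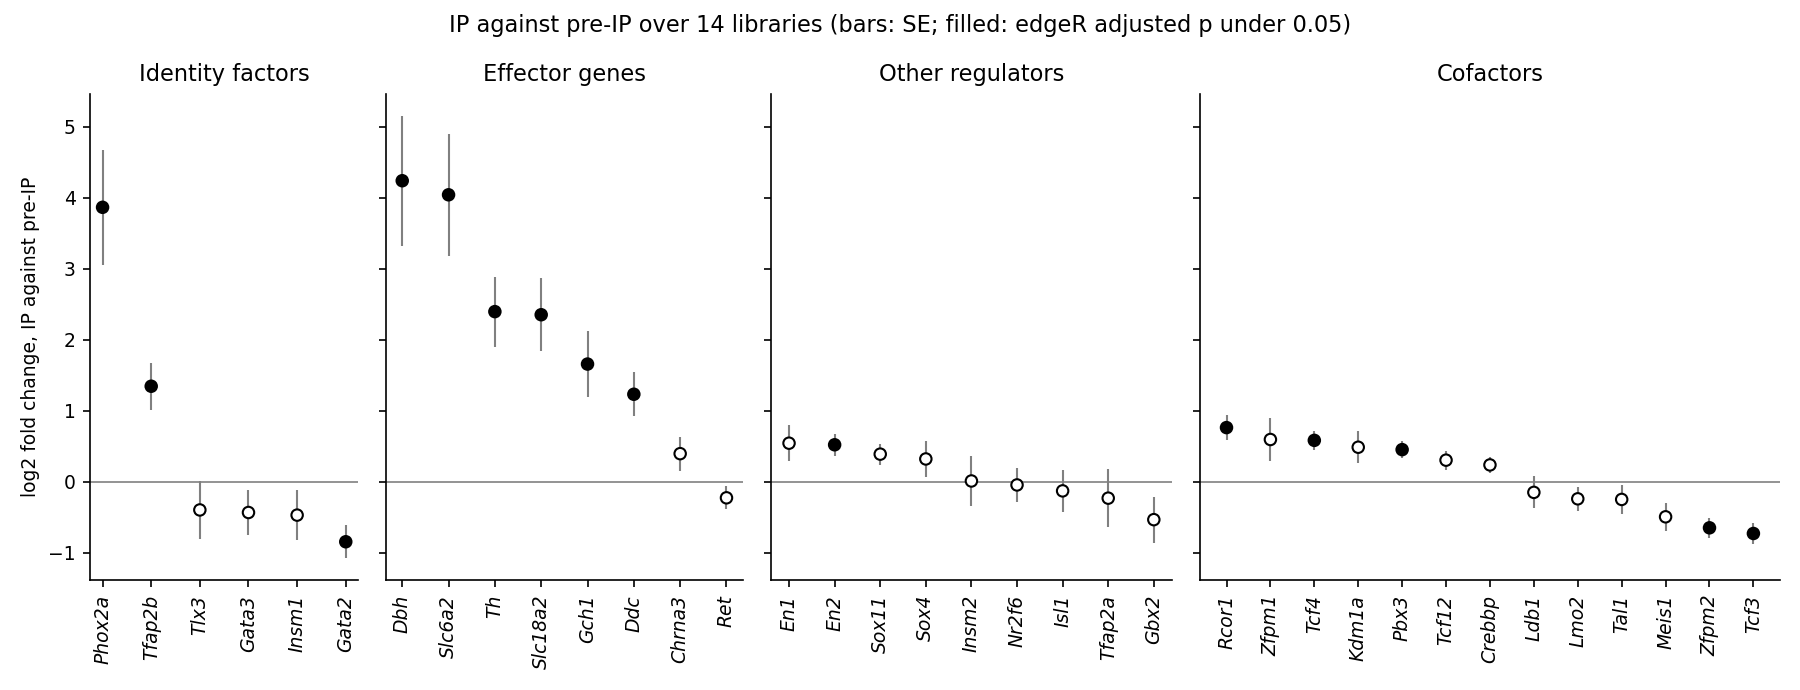
Log2 fold change of IP against pre-IP over 14 libraries (vertical axis) for the identity factors and 3 lists of genes that work with them (horizontal axis), with bars for the SE and filled points for an edgeR adjusted p under 0.05. Phox2a at 3.87 lies near Dbh at 4.24 and Slc6a2 at 4.04, while all 13 cofactors lie within 1 of 0.

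The genes whose levels followed each member most closely over the 14 libraries are given as a description, since the libraries share animals and differ in noradrenergic content. Pearson correlations used log2 CPM with a prior count of 2. Phox2a was followed by Uts2b, which encodes a urotensin peptide (r = 0.956), Calca, which encodes calcitonin gene-related peptide (r = 0.955), and Dbh (r = 0.953). Tfap2b was followed by A330008L17Rik (r = 0.961), the vesicle docking gene Rab27b (r = 0.960) and Rsph9 (r = 0.953), and its correlation with Dbh was 0.805 and with Phox2a 0.749. Gata2 was followed by Tns2 (r = 0.951), Ripor3 (r = 0.948) and Hapln4 (r = 0.946), and ran opposite to Tfap2b (r = -0.929). Gata3 was followed by Il6ra (r = 0.987), Pspn (r = 0.982) and the relaxin family receptor gene Rxfp3 (r = 0.982). Tlx3 had Gm35569 (r = 0.927), Ano6 (r = 0.918) and Kcnj11 (r = 0.916), and Insm1 had 8430432A02Rik (r = 0.939), Arl2bp (r = 0.919) and Zfp622 (r = 0.906). None of the genes closest to Gata2, Gata3, Tlx3 or Insm1 was a noradrenergic effector of the list.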

How the data were processed

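Polyadenylated RNA was made into libraries with SMART-Seq v4 and Nextera XT kits, per the labels' protocols. FastQC, Trim Galore, STAR and featureCounts are named with the builds GRCm38 and mm10, per the submitters' processing notes. Their settings, the use of strand and the counting of read pairs are not given in the sources used here. The authors deposited whole-number counts per gene and library, unnormalized, and a sheet with raw read totals, RNA concentrations, an RNA integrity score and the GC percent of each library, per the file headers. Symbols came from the deposited gene table, and 3669 of 3710 missing ones from GENCODE M21, whose spans were the same for 50973 shared identifiers. Totals were 76.4 to 85.3 percent of raw reads, and floors cover counting error only.

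Counts were tested with the quasi-likelihood test of edgeR 4.0.16 (R 4.3.3), with filterByExpr, TMM scaling and Benjamini-Hochberg adjustment over all genes, after tests on simulated data. A standard error is the size of the log2 fold change over the square root of F. CPM was the count over the library total times 1000000, and IP over pre-IP used a prior count of 2. DESeq2 1.42.0 and other settings were alternatives. Fractions of 1 animal are paired by its letter, and their deviations from the group means correlated at 0.146 to 0.405. The members and lists were chosen with earlier results of these data known. The genes named were the members, Dbh, Th, the 2 highest and 2 lowest of each list by IP against pre-IP, and the 3 most correlated with each member. Of the genes first listed, 3 are not reported here, and list counts, medians and correlated genes leave them out.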

Additional observations from a re-analysis of the deposited data

Results flagged for a closer look

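Tlx3 in the tau IP of animal B stood apart from the other 3 tau IP libraries. It had 0.142 CPM, from 8 counts, where the others ran from 0.986 to 1.15, and its gap to the nearest library was larger than the limit of Dixon's test for 4 values. The same library had the lowest Gata3 level and the highest Phox2a and Dbh levels of the tau IP group. It also had the lowest RNA concentration of all libraries, 0.1 ng per microlitre, and the fewest genes with a count, 20813, where the highest was 25885. The part of low input in these levels was not tested. Chance alone gives such a gap in about 1 of 20 groups, and 18 sets of 4 tau values were looked at.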

How the results depend on the processing

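The calls of Phox2a, Tfap2b and Gata2 in IP against pre-IP held in direction and side of the threshold under each setting but EYFP animals alone (1218 genes past the threshold). With the animal as replicate block, the pairing of its fractions, 6119 genes passed against 5828 without, 5466 of them in both. The block gave 3.59 for Phox2a (edgeR adjusted p = 0.0054) and ended no member's call. In the interaction it gave 4.19 (edgeR adjusted p = 0.381), with 0 genes past the threshold. Leaving out 1 animal gave 4291 to 5920 genes for IP against pre-IP, 0 to 128 for tau IP against EYFP IP, 0 to 1 for tau pre-IP against EYFP pre-IP and 0 to 56 for the interaction. DESeq2 gave 411 genes for tau IP against EYFP IP and 52 for the interaction. With no filter on low counts edgeR gave 113, 44 and 67 genes for tau IP against EYFP IP, the pre-IP contrast and the interaction. Phox2a was then past the threshold in the first, at 3.91 (edgeR adjusted p = 0.00338), and in the interaction, at 4.39 (adjusted p = 0.000481). The cause was not tested. Signs turned only for values that no setting called. In the pre-IP contrast, leaving out 1 animal gave -0.14 to 0.47 for Gata2 (negative without H, I, L or M), -0.73 to 0.024 for Phox2a (positive without K), -0.15 to 0.47 for Tfap2b (negative without K) and -0.26 to 0.35 for Insm1 (negative without K or L). Gata2 there was at -0.056 with the library number range as covariate. In the interaction Tlx3 ran from -0.67 to 0.31 (positive without H). Pre-IP values of Phox2a rest on 10 to 40 counts, which limits each ratio.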

Other observations

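All 14 Insm1 counts were even numbers. Among values of 1 or more, 65.63% were even in coding genes of a single exon block, as Insm1 is, and 58.42% in other coding genes. How the 2 mates of a read pair were counted is not given in the sources used here, and whether a count stands for a fragment or for a mate was not tested. For the other detected members, 28.57% (Gata3) to 78.57% (Tlx3) of the 14 counts were even.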
